A study of Mus musculus with 3 samples.

Results

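The E proteins Tcf3 (E2A, listed under its older symbol Tcfe2a), Tcf4 and Tcf12, with their inhibitors Id1, Id2, Id3 and Id4, were followed in bone marrow progenitors with and without Mef2c. The members were taken by gene name among the non-control probes of 3 mouse 2-colour Agilent arrays, which gave 15 of 41174 probes and 7 of 27671 genes. A further 2 probes carry the name Tcf3 in the files but the accession of Tcf7l1, a TCF/LEF factor of Wnt signalling, and were left out. Another 2 probes named A130037E08Rik, a RefSeq synonym of Tcf12, fell outside the naming rule and are given separately. Of the 15 probes, 13 were well above background in one channel on at least 2 arrays, and each of the 7 genes had at least 1 such probe.

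Mutant mice carried Mx1-Cre and floxed Mef2c alleles (Mx1-cre+ Mef2cfl/fl), and control mice carried the floxed alleles without Cre. Both received 250 µg poly(I:C) on each of 4 days, and marrow was taken 2 days after the last dose. Mx1-Cre is driven by an interferon-inducible promoter that is active in many cell types, so recombination is not limited to progenitors. Controls shared the floxed alleles and the poly(I:C) but lacked Cre, so effects of Cre and of the loss of Mef2c cannot be told apart. From each sample 15000 cells negative for lineage markers and positive for c-kit and Sca-1, called multipotent progenitors in the labels, were sorted. The sort as stated has no marker that separates stem cells from later progenitors. The labels give no age, sex or number of mice per sample. Nothing in the labels tells whether replicates came from separate animals, so the spread that p-values use may be technical.

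E proteins are basic helix-loop-helix (bHLH) transcription factors. They bind the E-box, a short DNA motif, as dimers with each other or with tissue-restricted bHLH partners, and they switch on lymphoid genes in early progenitors and in B and T cell precursors. Id proteins have the helix-loop-helix but no basic region, so they dimerise with E proteins and keep them off DNA. BMP and TGF-beta signals through Smad factors, and the early growth response factors of the Egr family, are known inducers of Id genes.

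Each array held 1 mutant sample in Cy3 and 1 control sample in Cy5. Values are log2 signals of single samples, or log2 ratios of mutant over control within an array, given as mean ± SD over 3 arrays. Between 73.4% and 80.3% of probes in a channel were well above background, no spot was saturated, and with 3 arrays precision is limited by their number. The labels give no dye swap, so dye and genotype cannot be told apart. The authors' deposited ratios of array 2 ran opposite to those of arrays 1 and 3, with correlations with the scanner's Cy5 over Cy3 ratio of -0.947, 0.935 and -0.939 on arrays 1, 2 and 3. Signs here follow the labels, and values with the sign of array 2 turned are given with the members and lists. The control sample of array 1 stood apart: the mean signal of 8 neutrophil markers was 12.7 there, 9.91 in control 2 and 9.98 in control 3, while mutants 1, 2 and 3 had 9.74, 9.85 and 8.77. Its signal of Egr1, an immediate early factor, was 15.5, against 11.7 in control 2 and 9.37 in control 3. The part of these differences in the members' values was not tested, and values without array 1 are given with the results. The Mef2c probe itself read a log2 ratio of 0.08 on array 1, 0.10 on array 2 and -0.96 on array 3, and whether it lies in the deleted part of the gene is not known here. The gate genes Kit and Ly6a, and the progenitor genes Cd34 and Flt3, were above background in all 6 samples.

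The promoters of 2 Id genes are shown because they hold, or lack, the E-box letters that E proteins bind. These are the 250 bases before the RefSeq start in GRCm38.p6, chr12:25096093-25096342 on the minus strand for Id2 and chr4:136143572-136143821 on the plus strand for Id3. Capitals mark an E-box of the E protein type (CAGCTG, or CACCTG and its reverse complement CAGGTG, on either strand).
Id2: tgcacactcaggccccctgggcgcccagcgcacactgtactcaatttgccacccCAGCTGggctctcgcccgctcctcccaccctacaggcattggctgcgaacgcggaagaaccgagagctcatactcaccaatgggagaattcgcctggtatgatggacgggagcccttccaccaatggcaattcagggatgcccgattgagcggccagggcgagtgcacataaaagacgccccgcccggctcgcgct
Id3: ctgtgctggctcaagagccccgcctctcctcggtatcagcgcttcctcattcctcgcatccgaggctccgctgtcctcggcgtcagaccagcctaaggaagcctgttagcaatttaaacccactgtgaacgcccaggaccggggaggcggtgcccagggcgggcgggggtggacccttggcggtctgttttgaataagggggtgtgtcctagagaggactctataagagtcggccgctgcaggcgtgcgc
The Id2 window held 1 such E-box, 196 bases before the start, and the Id3 window held none. Of 32851 windows of this length, 27.7% held at least 1. The Id4 window and the Tcf3 window held none, and 1 of the 3 Tcf12 windows held 1. Binding sites of EGR factors, searched as GCGGGGGCG and GCGTGGGCG on both strands, were found in 3.06% of all windows and in none of those of Tcf3, Tcf12, Id2, Id3 and Id4. These letter matches are descriptions of sequence and say nothing of binding in these cells.

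All 3 E protein genes were well above background in every sample, on all 8 of their probes. None of the 6 member genes above background in all 6 samples differed between mutant and control at an adjusted p under 0.05 by limma. None of them had an unadjusted p under 0.05 by limma, and Id4, near background, was not counted. Over all 22215 genes tested, 0 (0%) passed the adjusted threshold, while limma's unadjusted p was under 0.05 for 1069 (4.81%) that were higher in the mutant and 1182 (5.32%) that were lower. Of the 6 members above background in all 6 samples, only Tcf4 had a ratio of the same sign on all 3 arrays, lower in the mutant, beside 35.5% of all genes in either direction. With array 2 turned that background was 20.1%, and Tcf4 no longer ran one way, while Tcf12 and Id2 were higher on all 3 arrays. None of these 6 had groups without overlap, beside 19% of all genes: 11.8% were lower in every mutant than in every control and 7.21% higher. The ratios of different arrays were themselves weakly related, with correlations across genes of 0.306, 0.128 and 0.0389 for the 3 pairs of arrays.

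**Figure D1:**
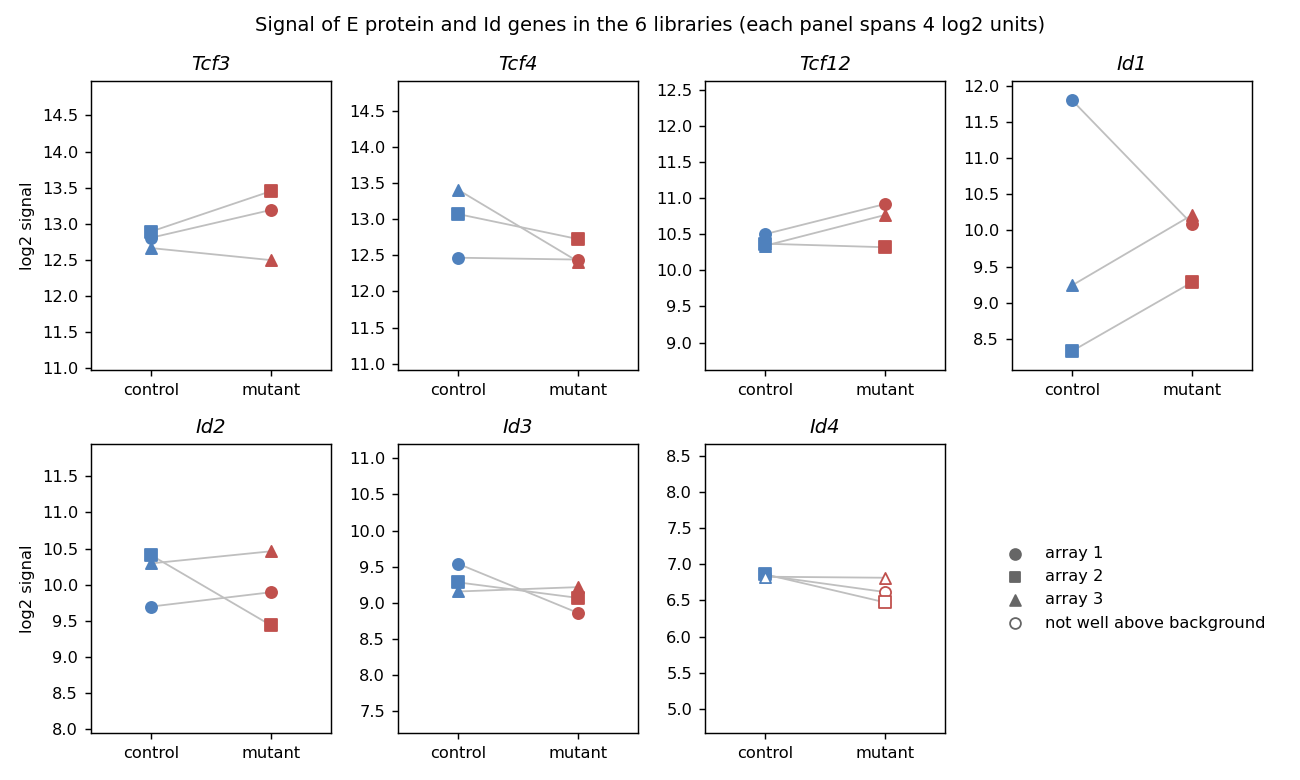
Log2 signal of each member gene's representing probe in the 3 mutant and 3 control samples, 1 point per sample; symbols mark the array, grey lines join the samples of an array, and hollow points were not well above background. Id1 ranged from 8.33 to 11.8 among the controls, whereas Tcf3, Tcf4, Tcf12, Id2 and Id3 overlapped within narrower ranges.

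Tcf3 encodes the E2A proteins, which are needed for B cell commitment and for the earliest lymphoid progenitors. Its signals were 13.2, 13.5 and 12.5 in mutants 1, 2 and 3 and 12.8, 12.9 and 12.7 in controls 1, 2 and 3. Mutants 1 and 2 were above every control and mutant 3 was below every control, so the groups overlapped. The log2 ratio was 0.26 ± 0.38 (SD, n = 3; 95% interval -0.33 to 0.85; adjusted p = 0.686 by limma). The second probe, A_51_P394471, lies 3264 bases away in the files' coordinates and gave 0.14 ± 0.37, with ratios of 0.41, 0.28 and -0.27 that had the same sign on each array as the first probe. With array 2 turned the ratio of Tcf3 was -0.11, and without array 1, 2 or 3 it was 0.20, 0.11 or 0.47.

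Tcf4 encodes E2-2, the E protein that plasmacytoid dendritic cells depend on. The representing probe, A_52_P424847, read 12.4, 12.7 and 12.4 in the mutants and 12.5, 13.1 and 13.4 in the controls. Each mutant was below the control of its own array, by 0.03, 0.35 and 0.99 on the log2 scale, but mutant 2 was above control 1. The ratio was -0.46 ± 0.49 (SD, n = 3; 95% interval -1.10 to 0.19; adjusted p = 0.552 by limma), and it was -0.67 without array 1 and -0.22 with array 2 turned. A second probe 871 bases away, A_51_P265137, was also lower on all 3 arrays, by 1.24, 0.75 and 0.43 on the log2 scale. Its mean was -0.81 ± 0.41 (unadjusted p = 0.0205 and adjusted p over all probes = 0.543 by limma), and its groups overlapped, since mutant 3 at 11.9 was above control 2 at 11.6. The third probe, A_52_P521101, spans 53835 bases in the files' coordinates and so crosses an intron, and lies 163425 bases from the nearer of the other 2. It gave 0.03 ± 0.30, with array ratios of 0.32, 0.06 and -0.28, so the probes of Tcf4 disagreed about a lower level in the mutant. Of the 10 markers of plasmacytoid dendritic cells 9 could be tested, and 6 of them (Ccr9, Tlr9, Ly6d, Tlr7, Cox6a2 and Klk1) were lower in the mutant on all 3 arrays, beside 20.3% of all genes. The other 3 had a mean ratio above 0: Irf8 at 0.49, Bst2 at 0.07, and Spib at 0.14, which was higher on all 3 arrays. The median ratio of the 9 was -0.23, or -0.074 with array 2 turned, and 0 had an unadjusted p under 0.05 by limma. Their mean signal was 11.0 to 11.2 in mutants and 11.2 to 11.3 in controls, and Siglech, their defining surface lectin, was not well above background in any sample. The part of these markers in the Tcf4 values was not tested.

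Tcf12 encodes HEB, the E protein that acts with E2A in early thymocytes. Its signals were 10.9, 10.3 and 10.8 in the mutants and 10.5, 10.4 and 10.3 in the controls. Mutants 1 and 3 were above all controls and mutant 2 was the lowest of the 6. The ratio was 0.26 ± 0.27 (SD, n = 3; 95% interval -0.28 to 0.81; adjusted p = 0.658 by limma), and it was 0.19 without array 1. The other probes gave 0.29 ± 0.76 for A_51_P310135 and 0.10 ± 0.21 for A_52_P859153. On the first of these, array 2 read 1.09 and array 3 read -0.42, so the arrays did not run one way. Turning array 2 gave -0.44 and -0.062 for these other probes, against 0.30 for the representing probe. The 2 probes named A130037E08Rik gave -0.17 ± 0.11 and -0.07 ± 0.12.

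**Figure D2:**
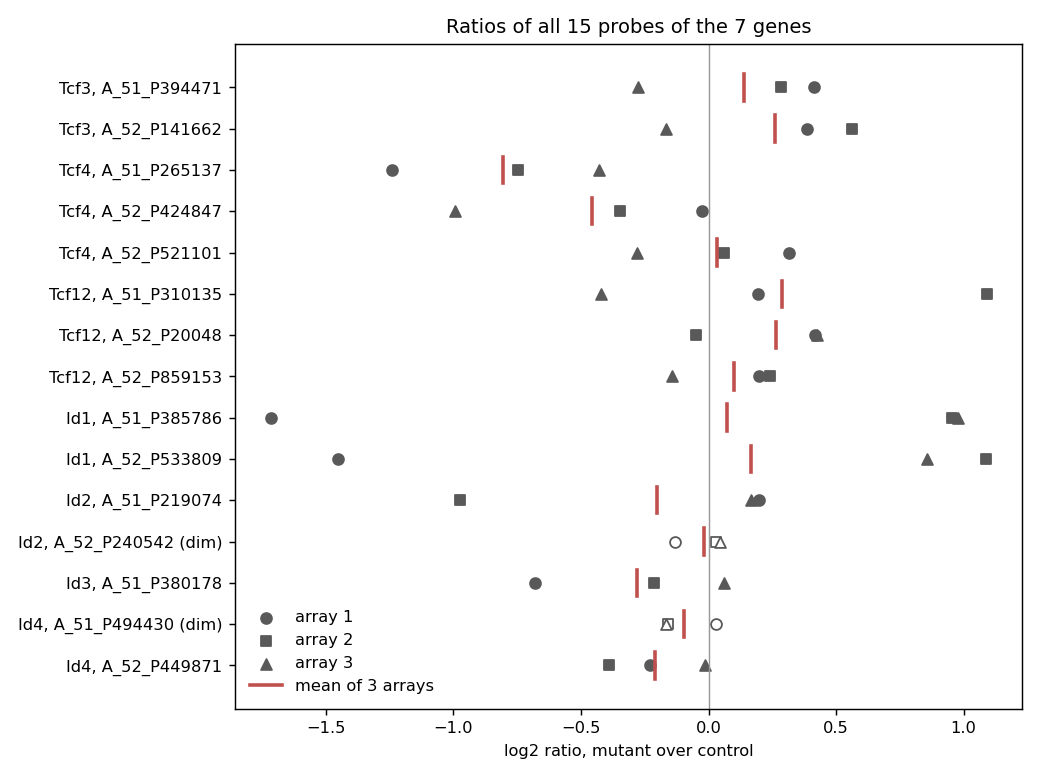
Log2 ratio of mutant over control for each of the 15 probes of the 7 genes, 1 point per array, with a red line at the mean of the 3 arrays; hollow points are the 2 probes too dim to test. In this plot 2 of the 3 Tcf4 probes lie below 0 on all 3 arrays, and both Id1 probes are split, with array 1 below 0 and arrays 2 and 3 above.

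Id1 differed more between samples than the other members. Its signals were 10.1, 9.28 and 10.2 in the mutants and 11.8, 8.33 and 9.24 in the controls. The SD was 0.50 among mutants and 1.80 among controls, and the control of array 1 was the highest of the 6 samples while the control of array 2 was the lowest. The ratios were -1.72, 0.95 and 0.98, which average 0.07 ± 1.55 (SD, n = 3; 95% interval -1.31 to 1.45; adjusted p = 0.968 by limma). The SD of the ratios was exceeded by 1.35% of genes, and the range over the 6 samples, 3.47, by 0.401% of genes, whose median range was 0.902. The second Id1 probe shares 50 of its 60 bases with the first and so does not measure Id1 independently. It gave -1.45, 1.09 and 0.86. Without array 1 the ratio was 0.96, with an unadjusted p of 0.0129 and an adjusted p of 0.782 by limma, and with array 2 turned it was -0.56.

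Id2 restrains E proteins in natural killer cells, innate lymphoid cells and dendritic cells. Its signals were 9.90, 9.44 and 10.5 in the mutants and 9.70, 10.4 and 10.3 in the controls. Mutant 2 was the lowest of the 6 samples and mutant 3 the highest, and the groups overlapped. The ratio was -0.20 ± 0.67 (SD, n = 3; 95% interval -0.95 to 0.54; adjusted p = 0.803 by limma). The negative mean came from array 2, at -0.97, since arrays 1 and 3 read 0.20 and 0.17. With array 2 turned the ratio was 0.45, without array 2 it was 0.18, and without array 1 it was -0.40. The second Id2 probe, A_52_P240542, was not well above background in any of the 6 samples and was not tested.

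Id3 is the Id gene that antigen receptor and pre-antigen receptor signals induce in lymphocytes. Its 1 probe read 8.86, 9.07 and 9.22 in the mutants and 9.54, 9.28 and 9.16 in the controls. Controls 1 and 2 were above all mutants and control 3 was below mutant 3. The ratio was -0.28 ± 0.38 (SD, n = 3; 95% interval -0.86 to 0.31; adjusted p = 0.663 by limma), and it was -0.08 without array 1 and -0.14 with array 2 turned.

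Id4 is known chiefly from the nervous system and the mammary gland. Its probe A_52_P449871 was not well above background in any mutant and was above it in controls 1 and 2 only. The signals were 6.62, 6.47 and 6.81 in the mutants and 6.85, 6.86 and 6.83 in the controls. It passed the filter only through the controls, and the control mean was itself below the level that counts as above background on the mutant side. No fold, direction or count is therefore drawn from it. The second Id4 probe, A_51_P494430, was not well above background in any sample.

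Id1 was the 1 member with an SD over the 6 signals of at least 0.5, so the genes most like it were taken. Likeness was the root mean square difference of mean-centred log2 signals over the 6 samples, among 19500 genes above background in all of them, for which the median difference from Id1 was 1.11. The closest was Sowahc, at 0.152, followed by Socs3, a cytokine-induced inhibitor of JAK-STAT signalling, at 0.301, and the unnamed transcript cluster TC1418480 at 0.322. Socs3 read 10.1, 9.998 and 10.1 in the mutants and 11.997, 8.21 and 9.61 in the controls, the same order of controls as Id1. These genes were chosen by likeness over the same 6 signals, so a shared order is no separate finding.

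**Figure D3:**
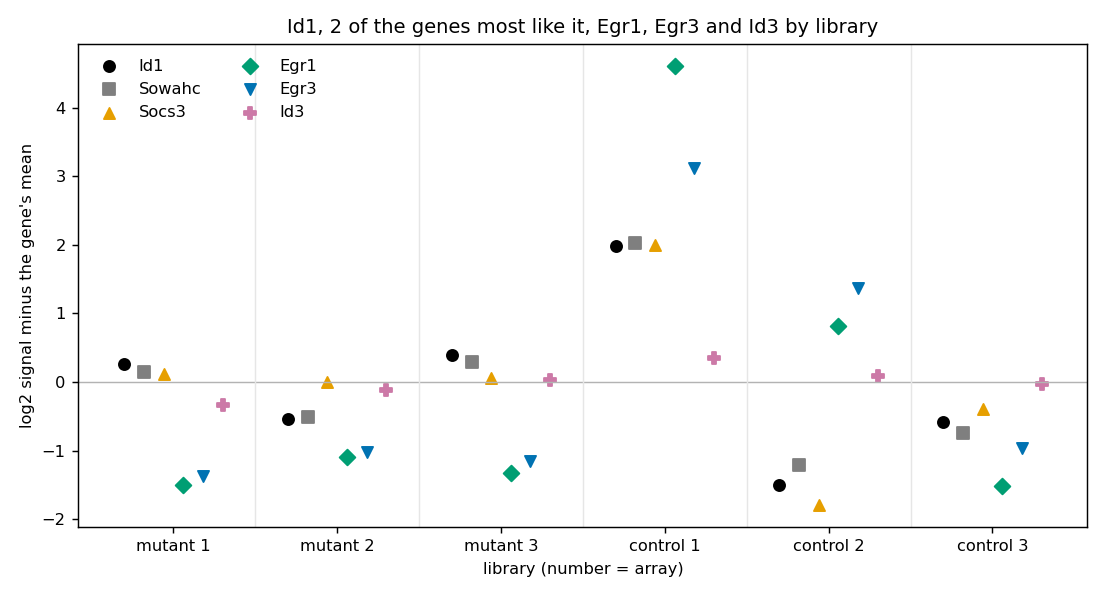
Log2 signal minus the gene's own mean over the 6 samples for Id1, Sowahc, Socs3, Egr1, Egr3 and Id3, 1 point per sample and gene. Id1, Sowahc and Socs3 are highest in control 1 and lowest in control 2. Sowahc and Socs3 were chosen for their likeness to Id1 over these same samples. Egr1 and Egr3 are highest in control 1 and next highest in control 2.

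Of the listed regulators of Id genes, 23 of 25 could be tested. By limma's unadjusted p under 0.05, 1 of 23 was higher in the mutant and 1 was lower, beside 4.81% and 5.32% of all genes. The ratio was below 0 in 16 of 23, beside 54.6% of all genes. The median ratio was -0.21, against -0.04 over all genes. The list was not split into regulators that raise and that lower Id genes, so its counts give no direction of input. Egr3, of the Egr family, gave -2.35 ± 2.15, with 12.6, 10.9 and 8.54 in the controls and 8.13, 8.47 and 8.35 in the mutants. Egr1 gave -2.61 ± 3.21, with array ratios of -6.11, -1.91 and 0.19. In both genes the difference lay in controls 1 and 2, and control 3 was near the mutants. Smad2, which carries TGF-beta signals, gave 0.62 ± 0.17 and was higher on all 3 arrays, and Bmpr2, a BMP receptor, gave -0.78 ± 0.74. None of these 4 passed adjustment (adjusted p from 0.465 to 0.495 by limma). Without array 1 the list's median was -0.07, and with array 2 turned 12 of 23 were below 0, beside 51.7% of all genes. Bmpr1a and Smad7 were not well above background in any sample. Control 2, with the lowest Id1 signal of the 6 samples, had the next highest Egr1 signal after control 1. The relation of Id1 to the Egr genes was not tested.

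Of the bHLH partners of E proteins, 10 of 15 could be tested, and 7 had a ratio below 0, beside 54.6% of all genes, with a median of -0.13. That median was -0.043 without array 1 and -0.028 without array 2. With array 2 turned, 4 of 10 were below 0, beside 51.7% of all genes, the median was 0.049, and 0 had an unadjusted p under 0.05 by limma. Tal1, a blood stem cell and erythroid factor that dimerises with E proteins, read 13.9, 13.4 and 13.6 in the mutants and 14.4, 14.4 and 13.9 in the controls. Every mutant was below every control, as in 11.8% of all genes, though mutant 1 at 13.90 and control 3 at 13.91 lay close. The ratio was -0.58 ± 0.35 (unadjusted p = 0.0482 and adjusted p = 0.489 by limma). Its relative Lyl1 gave -0.25 ± 0.49, Hand2 gave -0.29 ± 0.21 and Atoh8 gave -0.20 ± 0.37. Tal2, Nhlh1, Nhlh2, Twist1 and Hand1 were not well above background in any sample.

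Of 14 cofactors, corepressors and turnover factors, 13 could be tested, and 8 had a ratio below 0, a share of 61.5% beside 54.6% of all genes, with a median of -0.28. The median was -0.061 with array 2 turned and -0.11 with a gene's probes averaged. Lmo2, the adaptor of complexes of Tal1 with E proteins, read 14.2, 14.9 and 14.3 in the mutants and 15.4, 15.2 and 15.2 in the controls. Every mutant was below every control, as in 11.8% of all genes, and the ratio was -0.82 ± 0.48 (unadjusted p = 0.0201 and adjusted p = 0.463 by limma). Cbfa2t2, a corepressor of the ETO family, gave -1.03 ± 0.54, with mutant 2 above control 3. This is the value of 1 of its 3 probes, whereas Lmo2 has 1 probe. By limma's unadjusted p under 0.05, 2 of 13 cofactors were lower in the mutant, beside 5.32% of all genes. With a gene's probes averaged it was 1 of 13, beside 1169 of 22215 genes. The acetyltransferase Crebbp gave -0.50 ± 0.42, and Skp2, a ubiquitin ligase subunit that takes part in protein turnover, gave 0.35 ± 0.19. Ldb1, the partner of Lmo2 in those complexes, was also lower on all 3 arrays, at -0.31 ± 0.06. It was named after its values were seen.

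Of 27 genes known to be activated by E proteins in lymphoid cells, 25 could be tested. The ratio was below 0 in 23 of 25, beside 54.6% of all genes, with a median of -0.41. On arrays 1, 2 and 3 the targets' median was -0.62, -0.36 and -0.0088, so array 3 did not show the shift. The medians of all genes on these arrays were -0.068, -0.055 and 0.0042. By limma's unadjusted p under 0.05, 3 targets were lower in the mutant, beside 5.32% of all genes, and 0 were higher, and 10 of 25 were lower on all 3 arrays, beside 20.3% of all genes. Flt3, the cytokine receptor of lymphoid-primed progenitors, read 11.97, 12.1 and 12.2 in the mutants and 13.0, 13.3 and 13.4 in the controls, a ratio of -1.15 ± 0.12. Dntt, the terminal transferase of antigen receptor rearrangement, gave -2.63 ± 1.32, and Rag1, a subunit of the recombinase, gave -1.39 ± 0.70. In all 3 genes every mutant was below every control, as in 11.8% of all genes. These were the 3 of smallest unadjusted p in the list, and none passed adjustment (adjusted p = 0.461 for each by limma). Cdkn1a, a cell cycle inhibitor, gave -0.92 ± 1.13, with array 3 above 0.

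**Figure D4:**
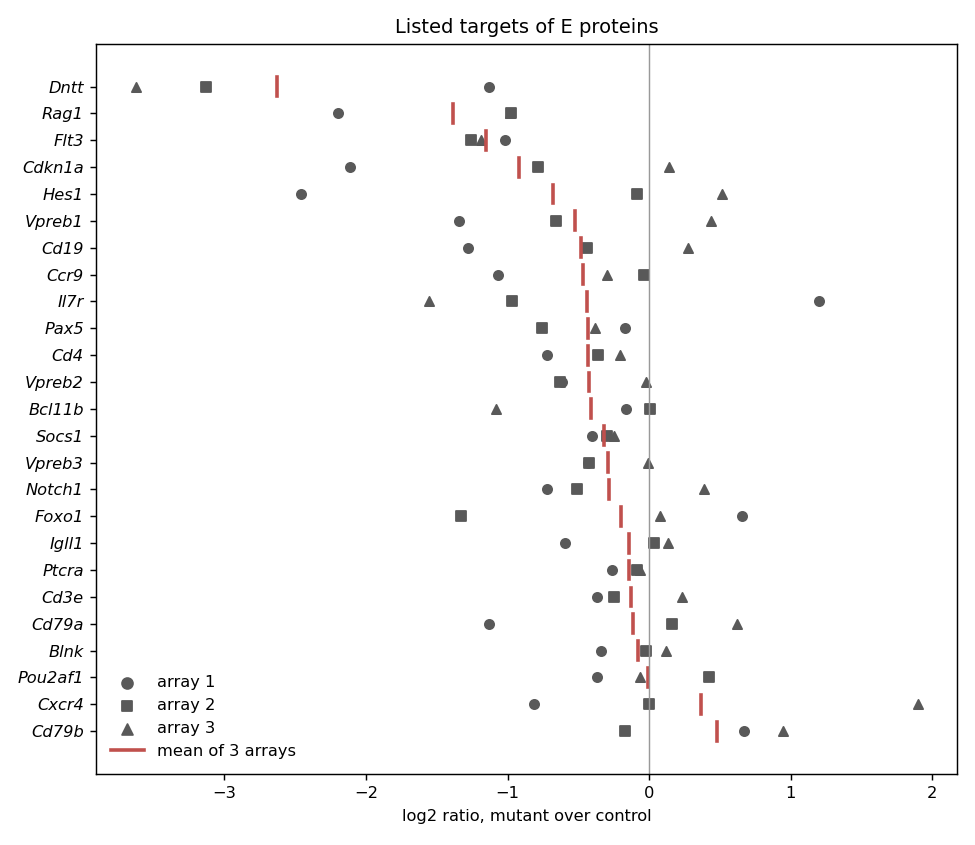
Log2 ratio of mutant over control for the 25 testable targets of E proteins, 1 point per array, ordered by the mean ratio, which a red line marks. Only Cd79b and Cxcr4 have a mean above 0, and Dntt, Rag1 and Flt3 have the lowest means.

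These counts rest in part on the direction of array 2 and on array 1, and the targets' median on array 3 was near that of all genes. With array 2 turned, 18 of 25 targets were below 0, beside 51.7% of all genes, and the median was -0.12. Of the targets 0 then had an unadjusted p under 0.05 by limma, and 2 were lower and 2 higher on all 3 arrays. Of all 22215 genes, 2099 were lower and 2368 higher on all 3. Without array 1, again 18 of 25 were below 0, beside 52.9% of all genes, with a median of -0.17. Limma's unadjusted p was then under 0.05 for 4 targets, all lower, beside 663 of 22215 genes that were lower. The list was also not measured apart from cell type: several targets are B or T lineage genes, and in sorted pools fewer cells of a type and less RNA per cell cannot be told apart. The B lineage markers averaged 9.79, 9.67 and 9.88 in the mutants and 10.2, 9.95 and 9.66 in the controls, with 8 of 9 ratios below 0 and 0 of 9 at an unadjusted p under 0.05. The T lineage markers averaged 9.60, 9.54 and 9.74 in the mutants and 9.82, 10.1 and 9.80 in the controls, with 9 of 10 ratios below 0. Over all genes 54.6% of ratios were below 0. The median of the B lineage markers was -0.14, or -0.0056 with array 2 turned. For the T lineage markers the median was -0.26, or 0.053 with array 2 turned, so neither list was then lower. Of the T lineage markers Cd3g, a subunit of the T cell receptor complex, had an unadjusted p under 0.05, at -0.77 ± 0.20 (unadjusted p = 0.0116 and adjusted p = 0.463 by limma). The part of cell makeup in the target list was not tested. Rag2 and Ebf1 could not be tested because they were too dim.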

How the data were processed

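RNA from sorted progenitors of 3 mutant and 3 control samples was amplified by a global PCR of cDNA, and 250 ng was labelled per dye, per the labels' protocols. Per the file headers, Feature Extraction 9.5.1.1 made the deposited intensity of each spot, a linear brightness, and also processed signals and the log10 of Cy5 over Cy3. The deposited table holds the authors' log2 ratios per spot. Limma is named, without a version, in the submitters' processing notes. Across spots these log2 ratios correlated at 1.00 with a loess fit without background correction, up to sign.

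Background was corrected by normexp (offset 50), arrays were normalized by loess with control spots at weight 0, outlier spots (300, 331 and 252) were left out, and single-channel signals were scaled with Aquantile. A probe was kept if at least 2 arrays measured it and found it well above background in 1 same channel, and a gene was represented by its probe of highest mean log2 intensity. The test against a ratio of 0 was limma 3.58.1 under R 4.3.3, an intercept fitted by lmFit and eBayes over 22215 genes (or 32898 probes for probe values) with Benjamini-Hochberg adjustment at 0.05. A group whose probe is dim on every array has only a bound, from normalized channel means, open to dye bias. An exact sign-flip test on 3 arrays cannot go below p = 0.25. The 3 arrays lay on 1 slide and 1 scan, so neither could be fitted as a block. The fit was tested on simulated data. Promoters and symbols came from RefSeq tables of GRCm38.p6, by accession for 22951 probes, symbol for 6659 and synonym for 3107, while 8457 kept the files' name. Promoter entries were found for Tcf3, Tcf12, Id2, Id3 and Id4.

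Named were all member probes, the 4 genes of smallest unadjusted p in each of 4 pathway lists, the 3 genes most like a member with an SD of at least 0.5, and gate and marker genes. The members and lists were chosen with earlier results of these data known.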

Additional observations from a re-analysis of the deposited data

How the results depend on the processing

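The 7 member ratios were recomputed under 13 alternatives, except that Id4 had no value where probes had to be above background everywhere. No gene passed adjustment under any of them. The representing probes of Tcf4, Id3 and Tcf12 kept their sign throughout, at -0.67 to -0.19, -0.52 to -0.08 and 0.08 to 0.42. With array 2 turned, Tcf3 was -0.11, Id1 -0.56, Id2 0.45 and Id4 0.048, and the median of the cofactors was -0.061 and of the Id regulators -0.061. Median centring in place of loess, which moved the median of all genes from -0.04 to -0.18, gave -0.085 for Id1, 0.033 for Id4 (-0.91 with Agilent's processed signals) and -0.33 for the Id regulators. Averaging a gene's probes gave -0.11 for both lists. Leaving out 1 array in turn gave 0.11 to 0.47 for Tcf3, -0.38 to 0.96 for Id1, -0.40 to 0.18 for Id2 and -0.20 to -0.070 for the Id regulators. Id4 read 0.048 with array 2 turned, 0.033 with median centring and -0.91 with Agilent's processed signals. Its probe lay near background, so no direction or fold is drawn from these values. The cause of the shifts under these alternatives was not tested. By limma's unadjusted p under 0.05, the 1069 genes that were higher and the 1182 that were lower became 551 and 2321 with median centring, 336 and 308 with array 2 turned, and 634 and 663 without array 1.

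Each array's ratio is itself the replicate block, since it pairs 1 mutant with 1 control. With no replicate block the 6 signals compared unpaired gave the same mean ratios, 0 genes at an adjusted p under 0.05, and, by limma's unadjusted p under 0.05, 1116 genes higher in the mutant and 1499 lower.

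The dimmest members, Id4 and the second Id2 probe, lay near background, so differences there were not measurable. No array design here separates dye from genotype, and the direction of array 2 is not known.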

Other observations

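The genes of the sort gate and of early progenitors also varied. Ly6a, which encodes Sca-1, read 14.7, 14.6 and 15.01 in the mutants and 13.8, 14.1 and 14.0 in the controls, a log2 ratio of 0.82 ± 0.27 (SD, n = 3; adjusted p = 0.463 by limma). Every mutant was above every control, as in 7.21% of all genes. The stem cell marker Slamf1 gave 1.16 ± 1.05 and was higher on all 3 arrays, whereas Procr, another stem cell marker, gave -1.57 ± 0.91 and was lower on all 3. Kit gave -0.36 ± 0.51 and Cd34 -0.29 ± 0.41. None of these passed adjustment.

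Among markers of natural killer and innate lymphoid cells, the lineage in which Id2 is best known, 9 of 10 were bright enough to test. Of these, 8 had a ratio below 0, beside 54.6% of all genes. The median was -0.23, and it was 0.022 with array 2 turned. The 1 marker above 0, Nkg7, was higher on all 3 arrays, at 0.48 ± 0.55. Rora, a factor of innate lymphoid cells, gave -0.84 ± 0.24, and Tbx21, a factor of natural killer cells, gave -0.69 ± 0.25. Both were lower on all 3 arrays and neither passed adjustment (adjusted p of 0.461 and 0.463 by limma). Neutrophil markers had ratios below 0 in 8 of 8, beside 54.6% of all genes, with a median of -1.40, or -1.45 with array 2 turned. Limma's unadjusted p was under 0.05 for Camp, S100a9 and Retnlg. Of all genes, 5.32% had such a p with a ratio below 0. Retnlg was well above background in only 1 mutant and 2 controls, so its fold is uncertain, and its array 3 ratio was 0.04. The medians of the neutrophil markers on arrays 1, 2 and 3 were -3.27, -0.036 and -1.25. In the remaining marker lists, ratios were below 0 for 5 of 9 erythroid, 4 of 9 monocyte and macrophage, and 6 of 8 stromal and endothelial markers, beside 54.6% of all genes. The medians of these lists were -0.13, 0.04 and -0.27, or 0.023, 0.018 and -0.16 with array 2 turned. The endothelial receptor Kdr and the macrophage receptor Mrc1 were not well above background in any sample.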
